A study of Mus musculus with 48 samples.

Results

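9 genes of transforming growth factor beta (TGF-beta) and activin signaling were followed through the early weeks after kainate injection in the mouse dentate gyrus. They were the TGF-beta ligand genes Tgfb1, Tgfb2 and Tgfb3, the receptor genes Tgfbr1 and Tgfbr2, the activin subunit gene Inhba, the signal transducer Smad3, the inhibitor Smad7 and the latency protein gene Ltbp1. The members were picked by symbol from the deposited count table, so they are 9 of 55357 genes, and all 9 were among the 21390 genes that passed the filter for low counts. Kainate or saline was injected into the hippocampus of 1 hemisphere of C57BL/6J mice. The methods report a behavioral seizure in every kainate mouse and in no saline mouse. RNA came from the dorsal ipsilateral dentate gyrus, called the epileptogenic zone (EZ), and the dorsal contralateral dentate gyrus, called the peri-ictal zone (PIZ). The tissue was collected at day 3, 7 or 14 from separate mice, which gave 48 libraries from 24 mice, 1 of each region per mouse, in 12 groups of 4. According to the methods all mice were adult and wild type, with males and females in equal numbers in each group, and the labels give neither the age nor the sex of a mouse. The saline mice received the same surgery without kainate, so their EZ had been injected as well. Below, a mouse is called by the number in its label.

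TGF-beta is secreted in a latent form, in which the mature dimer is held by its own propeptide and tethered to the matrix by latent TGF-beta binding proteins such as LTBP1. Once freed, it binds TGFBR2, which recruits and activates TGFBR1, and the receptor pair phosphorylates SMAD2 and SMAD3, which enter the nucleus with SMAD4. SMAD7 is induced by this signal and blocks the receptor, while activin A, a dimer of the product of Inhba, uses other receptors but the same SMADs. In the brain, TGF-beta is known as a signal for microglia and astrocytes, and activin A as a factor that neurons make in response to strong activity.

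The libraries held 17762656 to 25712975 counts, and the members had between 40 and 6809 counts in a library. All 8 granule cell markers, among them Prox1, were detected in every group, with a summed level of 551 to 1438 CPM (counts scaled to the same library total) in saline libraries and 268 to 1409 CPM in kainate libraries. Some libraries stood apart from their group. In the EZ, kainate mouse 44 at day 3 stayed at the saline level for Inhba and Smad7, kainate mouse 27 at day 14 was far above the other mice of its group for 7 members, the highest for Tgfb2 and the lowest for Smad3, and kainate mouse 21 at day 7 had the lowest granule cell marker level of the series (268 CPM) and the highest microglia marker level (8887 CPM, against 2307 to 6438 CPM in the other mice of its group). In the PIZ, saline mice 18 and 39 and kainate mouse 21 had low granule cell marker levels of 652, 551 and 443 CPM.

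In saline libraries the members spanned a wide range of levels. Per kilobase of exon, Smad3 was the highest, with 21.4 ± 3.55 CPM per kb (SD, 24 libraries), followed by Tgfb2 with 8.74 ± 1.14 and Tgfbr1 with 6.85 ± 1.13. Smad7 (2.66 ± 0.313), Tgfbr2 (2.35 ± 0.42), Inhba (1.96 ± 0.568) and Tgfb3 (1.45 ± 0.204) were lower, and Tgfb1 (0.665 ± 0.207) and Ltbp1 (0.599 ± 0.103) were the lowest. The order of neighbours held in all 24 libraries between Smad3 and Tgfb2, Tgfbr1 and Smad7, and Tgfb3 and Tgfb1. It held in 21 of 24 libraries between Tgfb2 and Tgfbr1, in 22 between Inhba and Tgfb3, in 19 between Smad7 and Tgfbr2, in 18 between Tgfbr2 and Inhba, and in 15 between Tgfb1 and Ltbp1, so the ranges of these pairs overlapped. Tgfb2 was therefore the main TGF-beta ligand transcript of the saline dentate gyrus, and Tgfb1 the least abundant of the 3. Tgfb1 was higher in the EZ than in the PIZ in 12 of 12 saline mice, with a ratio of 1.05 to 2.16, and Tgfbr2 likewise in 12 of 12, with a ratio of 1.02 to 1.76, while the other members were higher in the EZ in 4 to 10 of 12 saline mice.

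**Figure D1:**
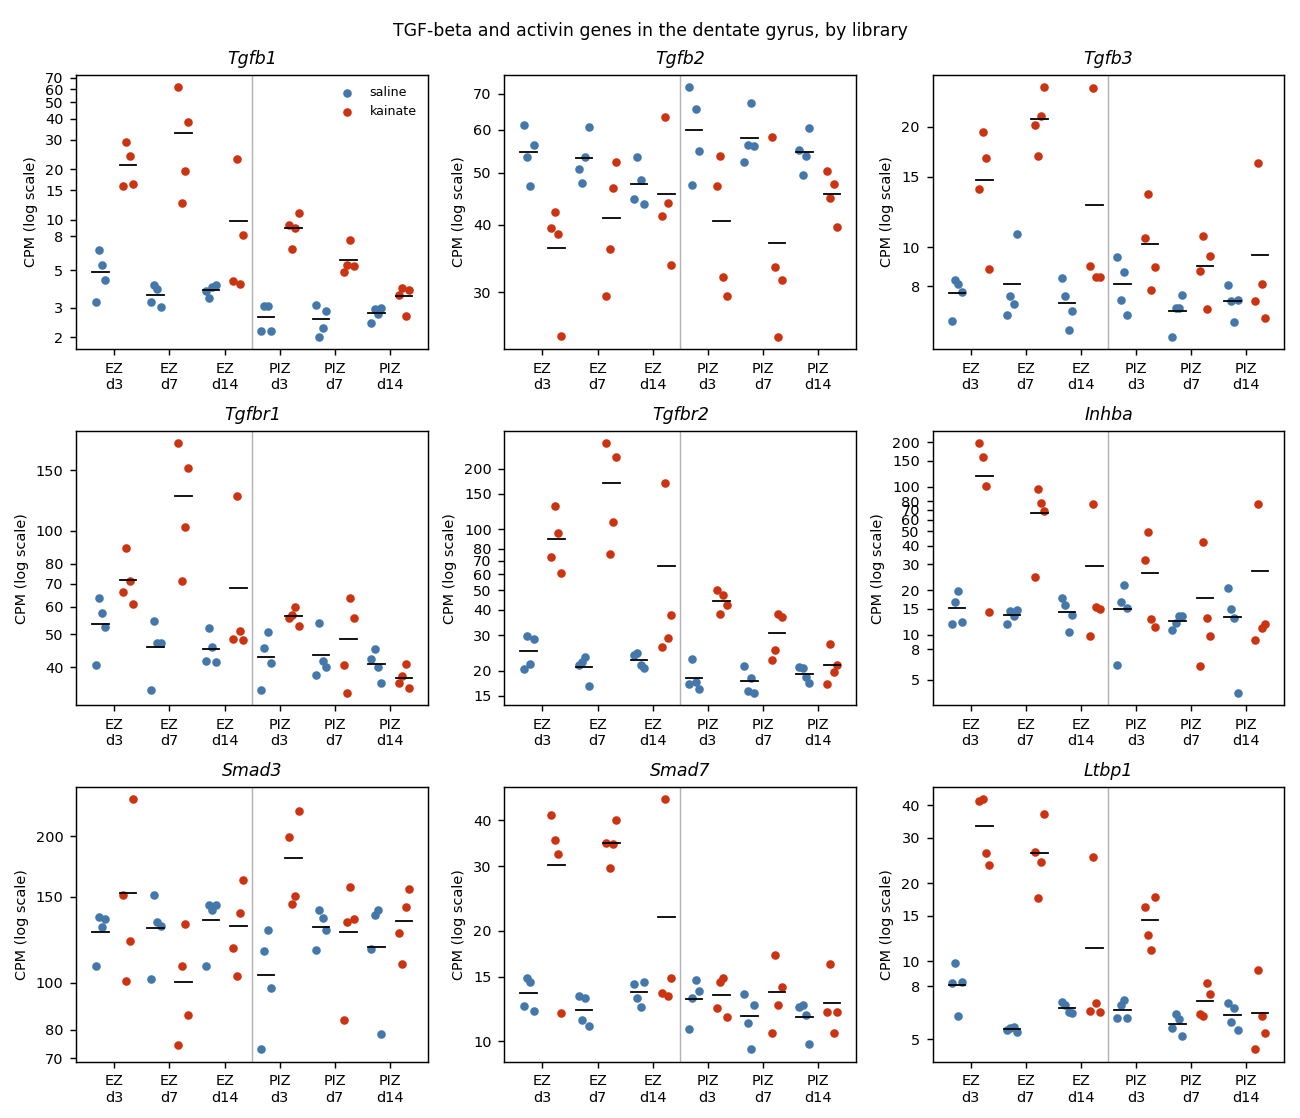
Level of each member in all 48 libraries, in CPM on a log scale, by region (EZ, PIZ) and day (d3, d7, d14). Each point is 1 library of 1 mouse (blue saline, red kainate) and the black line is the mean of 4. Tgfb1, Tgfbr2 and Ltbp1 lie above saline in every kainate EZ library at days 3 and 7, Tgfb2 lies below saline in the EZ at day 3, and in the EZ at day 14 mouse 27 is far above the rest for Tgfb1, Tgfb3, Tgfbr1, Tgfbr2, Inhba, Smad7 and Ltbp1 and the lowest kainate library for Smad3.

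In the EZ at day 3, 6 of the 9 members rose after kainate (Tgfb1, Tgfb3, Tgfbr2, Inhba, Smad7 and Ltbp1) and none fell. A gene was called when its Benjamini-Hochberg adjusted p in the edgeR quasi-likelihood test was under 0.01 and its fold change over 1.5, and 16.1% of all genes tested were called higher in this comparison. At day 7, 7 of 9 rose, with Tgfbr1 added, where 20.6% of all genes were called higher. At day 14 only Tgfbr2 passed the test, where 2.32% of all genes did. On the 3 days in turn, the median log2 fold change of the 9 members was 1.17, 1.51 and 0.77, and that of all genes was 0.03, 0.01 and 0.00. Every kainate library was above every saline library for 4 members at day 3, 7 at day 7 and 3 at day 14, and 23.9%, 23.7% and 4.58% of all genes were separated in this way. For Tgfb2 at day 3 every kainate library was below every saline library, which held for 18.5% of all genes.

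**Figure D2:**
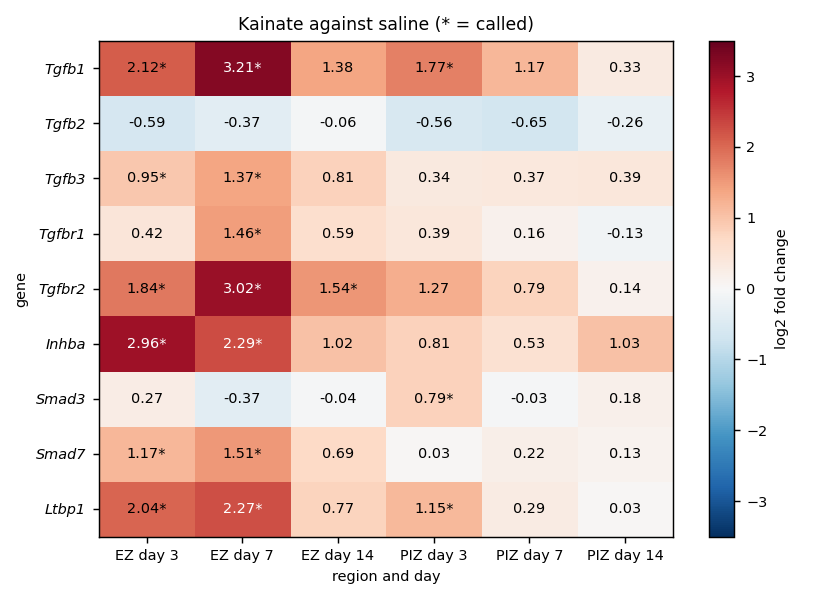
Log2 fold change of each member between kainate and saline, for each region and day, from the edgeR fit of all 48 libraries with 4 mice per group. Red is higher and blue lower after kainate, and a star marks a gene called at adjusted p under 0.01 and fold change over 1.5. The values of Tgfb1, Tgfbr2, Inhba, Smad7 and Ltbp1 are at or above 1.17 in the EZ at days 3 and 7, and the values of Tgfb2 are negative in all 6 columns.

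Among the ligands, Tgfb1 (chr7:25386390-25404506, plus strand, GRCm39), the TGF-beta that macrophages and microglia are known for, had the largest fold changes of the 3 in the EZ. In the EZ at day 3 it measured 15.9, 29.3, 23.9 and 16.2 CPM in kainate mice 30, 38, 42 and 44, and 3.27, 6.62, 5.40 and 4.38 CPM in saline mice 18, 29, 37 and 41. All kainate libraries were far above the highest saline library. The log2 fold change was 2.12 ± 0.37 (SE; adjusted p = 1.67e-05).

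At day 7 Tgfb1 stood at 61.8, 12.6, 19.5 and 38.3 CPM in the EZ of kainate mice 21, 23, 26 and 35, against 3.01 to 4.08 CPM in saline mice. The kainate mice were spread widely, but the lowest of them was still well above all saline mice. The log2 fold change was 3.21 ± 0.39 (adjusted p = 3.57e-08), and 2.72 without mouse 21. At day 14 the levels were 4.34, 23.02, 4.16 and 8.15 CPM in kainate mice 14, 27, 36 and 40 and 3.45 to 4.07 CPM in saline mice, so the groups were separated but 2 of the kainate mice lay just above saline. The log2 fold change of 1.38 ± 0.37 did not pass the threshold (adjusted p = 0.0191), and it was 0.55 without mouse 27. It passed when kainate mouse 14 or 36 was left out.

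Tgfb2 (chr1:186354985-186438294, minus strand) is the isoform with the highest level in the saline dentate gyrus, and its log2 fold changes were negative. It measured 39.5, 42.3, 38.4 and 24.9 CPM in the EZ of kainate mice 30, 38, 42 and 44 at day 3, against 61.1, 53.5, 47.3 and 56.4 CPM in saline mice 18, 29, 37 and 41. The groups did not overlap, and the log2 fold change was -0.59 ± 0.20, which missed the threshold (adjusted p = 0.0154) but passed in 2 of 10 other settings. It was -0.37 ± 0.20 at day 7 (adjusted p = 0.118), where kainate libraries at 29.6 to 52.3 CPM overlapped saline libraries at 47.9 to 60.7 CPM, and -0.06 ± 0.20 at day 14 (adjusted p = 0.91).

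Tgfb3 (chr12:86102756-86126301, minus strand), the third isoform, measured 14.0, 19.5, 16.8 and 8.84 CPM in the EZ of kainate mice 30, 38, 42 and 44 at day 3, against 6.53 to 8.28 CPM in saline mice. Mouse 44 was only just above the highest saline library. Tgfb3 rose at day 3 (log2 fold change 0.95 ± 0.26, adjusted p = 0.00333) and at day 7 (1.37 ± 0.27, adjusted p = 4.09e-05), when kainate libraries lay at 16.9 to 25.2 CPM and saline libraries at 6.79 to 10.8 CPM. The day 3 call was lost when saline mouse 18, kainate mouse 38 or kainate mouse 42 was left out. At day 14 the kainate libraries measured 8.97, 25.1, 8.43 and 8.44 CPM in mice 14, 27, 36 and 40, against 6.20 to 8.36 CPM, and the log2 fold change of 0.81 ± 0.27 did not pass (adjusted p = 0.0675; 0.25 without mouse 27).

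The composition of the ligand transcripts was compared as well. Tgfb1 made up 32.7% ± 4.73 (SD, n = 4) of the Tgfb1, Tgfb2 and Tgfb3 counts per kb in the EZ of kainate mice at day 3 and 8.73% ± 2.68 in saline mice. At day 7 the shares were 35.3% ± 16.7 and 6.61% ± 1.4, and at day 14 they were 14.95% ± 7.17 and 7.76% ± 1.01. In the PIZ the share was 18.2% ± 6.33 against 4.56% ± 1.33 at day 3, 13.9% ± 5.78 against 4.62% ± 1.2 at day 7, and 7.10% ± 1.47 against 5.15% ± 0.593 at day 14. Kainate and saline shares did not overlap in the EZ at days 3 and 7 nor in the PIZ at days 3 and 7. In those 4 comparisons the 2-sided exact permutation p was 0.0286, the smallest that 4 mice against 4 can give, and 0.0571 after adjustment over the 12 comparisons of shares and ratios, so none passed 0.05.

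**Figure D3:**
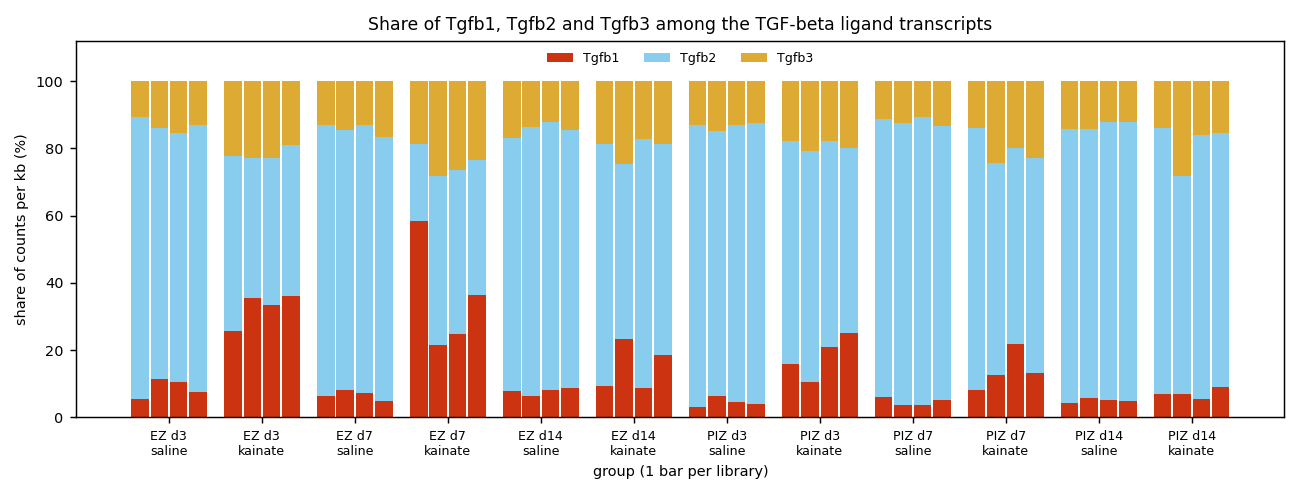
Share of Tgfb1 (red), Tgfb2 (light blue) and Tgfb3 (yellow) in the summed counts per kb of the 3 ligand genes, in percent, with 1 bar per library in 12 groups. Tgfb1 takes 25.8% to 36.05% in the kainate EZ at day 3 and 21.6% to 58.5% at day 7, against at most 11.4% in saline libraries of the EZ.

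Inhba (chr13:16186373-16206206, plus strand) encodes the subunit of activin A and had the largest fold change of the members in the EZ at day 3. In the EZ it measured 196, 159.8, 100.98 and 14.3 CPM in kainate mice 30, 38, 42 and 44, against 11.8, 16.6, 19.9 and 12.2 CPM in saline mice 18, 29, 37 and 41. Mice 30, 38 and 42 were far above every saline library, and mouse 44 lay within the saline range. Inhba rose with a log2 fold change of 2.96 ± 0.69 (adjusted p = 0.000605), which was 3.33 without mouse 44.

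At day 7 Inhba measured 24.7, 96.8, 77.9 and 68.6 CPM in kainate mice 21, 23, 26 and 35, against 11.9 to 14.7 CPM in saline mice, so the groups were separated, with mouse 21 the lowest of the kainate mice although it had the highest Tgfb1. The log2 fold change was 2.29 ± 0.68 (adjusted p = 0.00425), and the call was lost when any 1 of the 4 saline mice was left out. At day 14 kainate mice 14, 27, 36 and 40 measured 9.88, 76.4, 15.5 and 14.9 CPM, against 10.4 to 17.7 CPM in saline mice. Mouse 27 alone stood above the saline range, and the log2 fold change was 1.02 ± 0.66 (adjusted p = 0.436) with it and -0.10 without it.

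Of the receptors, Tgfbr2 (chr9:115913361-116004800, minus strand), which binds the ligand first, measured 72.8, 130.1, 96.0 and 61.1 CPM in the EZ of kainate mice 30, 38, 42 and 44 at day 3, against 20.5, 29.8, 21.6 and 28.6 CPM in saline mice 18, 29, 37 and 41. The groups were far apart, and Tgfbr2 rose with a log2 fold change of 1.84 ± 0.37 (adjusted p = 9.37e-05). At day 7 it reached 267, 75.3, 108 and 228 CPM in kainate mice 21, 23, 26 and 35, against 16.9 to 23.5 CPM in saline mice. The log2 fold change was 3.02 ± 0.38 (adjusted p = 5.92e-08), and the 4 mice were in the same order as for Tgfb1. At day 14 the levels were 26.3, 169, 28.9 and 37.8 CPM in kainate mice 14, 27, 36 and 40, against 20.7 to 24.4 CPM. Tgfbr2 was called at day 14 (log2 fold change 1.54 ± 0.37, adjusted p = 0.0071), but the value was 0.46 (adjusted p = 1.0) without mouse 27, and the call was also lost without any 1 of the 4 saline mice. It was 1.07 (adjusted p = 0.171) with the limma replicate block, 0.41 (adjusted p = 0.272) with limma-voom and 1.56 (adjusted p = 0.56) in a fit of the compared groups alone, none of them called.

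Tgfbr1 (chr4:47353134-47414931, plus strand), the signaling partner of Tgfbr2, passed the test at day 7 and not at day 3, although the change between these days was not called (1.04 ± 0.33, adjusted p = 0.144). At day 3 kainate libraries of the EZ measured 66.3, 89.2, 71.3 and 61.1 CPM in mice 30, 38, 42 and 44, against 40.8, 63.5, 57.8 and 52.3 CPM in saline mice 18, 29, 37 and 41, and the groups overlapped (log2 fold change 0.42 ± 0.23, adjusted p = 0.131). At day 7 it measured 179.5, 71.4, 103 and 152 CPM in kainate mice 21, 23, 26 and 35, against 34.4 to 54.7 CPM, and every kainate library was above every saline library. Tgfbr1 rose at day 7 (log2 fold change 1.46 ± 0.24, adjusted p = 2.85e-06). At day 14 mouse 27 measured 126 CPM and the other kainate mice 48.1 to 50.9 CPM, against 41.4 to 52.2 CPM in saline mice (log2 fold change 0.59 ± 0.23, adjusted p = 0.149; 0.12 without mouse 27).

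The intracellular members differed from each other. Smad3 (chr9:63554049-63665476, minus strand), the transducer, did not pass the test in the EZ on any day, with log2 fold changes of 0.27 ± 0.21 at day 3, -0.37 ± 0.22 at day 7 and -0.04 ± 0.21 at day 14 (adjusted p = 0.32, 0.142 and 0.947). At day 3 the kainate libraries measured 151, 101.005, 122 and 238 CPM in mice 30, 38, 42 and 44, and the saline libraries 108, 136, 130.3 and 135 CPM in mice 18, 29, 37 and 41. Mouse 44, the lowest in Inhba and Smad7, was the highest in Smad3, and without it the log2 fold change was -0.03.

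Smad7 (chr18:75500374-75529006, plus strand), the inhibitor, measured 41.4, 35.4, 32.5 and 11.9 CPM in the same kainate libraries and 12.5, 14.9, 14.5 and 12.1 CPM in the same saline libraries. Mice 30, 38 and 42 were far above saline, as for Inhba, and mouse 44 was just below the lowest saline library. Smad7 rose at day 3 (log2 fold change 1.17 ± 0.27, adjusted p = 0.000465; 1.43 without mouse 44; not called in a fit of the compared groups alone) and at day 7 (1.51 ± 0.27, adjusted p = 1.23e-05), when kainate libraries lay at 29.6 to 40.2 CPM and saline libraries at 11.0 to 13.3 CPM. At day 14 mouse 27 measured 45.6 CPM and the other kainate mice 13.3 to 14.9 CPM, against 12.4 to 14.5 CPM in saline mice (log2 fold change 0.69 ± 0.27, adjusted p = 0.142; 0.03 without mouse 27).

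The log2 ratio of Smad7 to Smad3, in counts per kb within a library, was -1.21 ± 0.465 (SD, n = 4) in kainate and -3.11 ± 0.341 in saline EZ libraries at day 7, which did not overlap (2-sided exact permutation p = 0.0286, adjusted p = 0.0571). In the EZ it was -2.12 ± 1.29 against -2.95 ± 0.165 at day 3 and -2.50 ± 1.08 against -3.01 ± 0.27 at day 14 (exact permutation p = 0.143 and 0.571). In the PIZ at day 3 the ratio was -3.45 ± 0.482 against -2.68 ± 0.2, with every kainate mouse below every saline mouse (exact permutation p = 0.0286, adjusted p = 0.0571). It was -2.93 ± 0.32 against -3.20 ± 0.317 at day 7 and -3.12 ± 0.465 against -3.03 ± 0.253 at day 14 in the PIZ (exact permutation p = 0.257 and 0.771).

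Ltbp1 (chr17:75312519-75699507, plus strand), which tethers latent TGF-beta to the matrix, was at 41.5, 42.1, 26.1 and 23.5 CPM in the EZ of kainate mice 30, 38, 42 and 44 at day 3, against 8.21, 9.86, 6.13 and 8.28 CPM in saline mice 18, 29, 37 and 41. Mouse 44 was on the side of the kainate mice for this gene, unlike for Inhba and Smad7. Ltbp1 rose at day 3 (log2 fold change 2.03 ± 0.28, adjusted p = 7.04e-07) and at day 7 (2.27 ± 0.29, adjusted p = 6.55e-08), when the kainate libraries lay at 17.6 to 36.9 CPM and the saline libraries within 5.32 to 5.57 CPM. At day 14 mouse 27 measured 25.2 CPM, the other kainate mice 6.35 to 6.91 CPM and the saline mice 6.33 to 6.97 CPM (log2 fold change 0.77 ± 0.28, adjusted p = 0.117; -0.01 without mouse 27).

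The promoters of Inhba, Tgfb1 and Ltbp1 are shown because these 3 members had the largest fold changes in the EZ at day 3. The letters come from the RefSeq promoter table of GRCm38.p6, which held 7 of the 9 members (not Tgfb3 and Smad7), and were placed on GRCm39 by exact match. Each stretch ends at the base before the first annotated base of the gene. Both strands of the 250 bases before each RefSeq start were searched for GGGCGG (the GC box), TGACGTCA (the cAMP response element), TGANTCA (the AP-1 site) and GTCTAGAC (a SMAD palindrome), and capitals mark the matches.
Inhba, chr13:16186186-16186372, plus strand: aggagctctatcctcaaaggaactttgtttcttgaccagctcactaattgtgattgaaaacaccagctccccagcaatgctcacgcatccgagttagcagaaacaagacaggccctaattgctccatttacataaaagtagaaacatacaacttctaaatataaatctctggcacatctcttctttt
Tgfb1, chr7:25386177-25386389, plus strand: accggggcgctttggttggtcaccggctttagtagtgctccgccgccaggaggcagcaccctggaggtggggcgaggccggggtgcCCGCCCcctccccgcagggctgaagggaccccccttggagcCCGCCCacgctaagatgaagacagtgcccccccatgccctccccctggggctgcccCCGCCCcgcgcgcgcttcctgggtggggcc
Ltbp1, chr17:75312274-75312518, plus strand: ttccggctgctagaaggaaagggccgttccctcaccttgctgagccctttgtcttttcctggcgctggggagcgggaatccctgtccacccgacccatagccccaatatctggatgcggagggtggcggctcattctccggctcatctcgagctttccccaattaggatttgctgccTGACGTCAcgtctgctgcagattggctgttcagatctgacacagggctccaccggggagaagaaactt
The Inhba stretch is poor in G and C (40.1%) and holds none of the motifs. The Tgfb1 stretch, with 74.6% G and C, holds 3 matches to the GC box, counted on both strands, and its whole window holds 5. The Ltbp1 stretch (58.0% G and C) holds 1 cAMP response element, and the second of the gene's 2 windows holds none of the motifs. Among all 32851 promoters of the table, 32.7% held a GC box, 1.55% a cAMP response element, 6.75% an AP-1 site and 0.167% the SMAD palindrome. GC boxes were also found for Smad3 (2) and Tgfbr1 (2 in 1 of its 2 windows), and none of the motifs for Tgfb2 and Tgfbr2.

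Fewer members passed the test in the PIZ. At day 3, 3 of the 9 members rose (Tgfb1, Smad3 and Ltbp1), where 7.12% of all genes were called higher. No member was called at day 7 or at day 14 by edgeR, where 0.15% and 0.00935% of all genes were called higher. At day 7, 3 members had an unadjusted p under 0.05, and DESeq2 called 0 and limma-voom with quality weights 3. At day 14, no member had an unadjusted p under 0.05, and DESeq2 and limma-voom called 0. Every kainate library was above every saline library for 5 members at day 3, 2 at day 7 and 0 at day 14, against 17.1%, 7.63% and 3.7% of all genes.

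Tgfb1 measured 9.30, 6.71, 8.97 and 11.0 CPM in the PIZ of kainate mice 30, 38, 42 and 44 at day 3, against 2.18, 3.06, 3.08 and 2.19 CPM in saline mice 18, 29, 37 and 41. The groups were well separated, and the log2 fold change was 1.77 ± 0.38 (adjusted p = 0.00078). At day 7 it lay at 4.89 to 7.56 CPM after kainate and at 2.02 to 3.12 CPM after saline, still without overlap, with a log2 fold change of 1.17 ± 0.39 that did not pass (adjusted p = 0.119). At day 14 the groups overlapped (2.69 to 3.92 and 2.45 to 2.99 CPM, log2 fold change 0.33 ± 0.39, adjusted p = 0.999).

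Smad3 was called in the PIZ at day 3 and in no EZ comparison. It measured 199, 145, 151 and 225 CPM in kainate mice 30, 38, 42 and 44, against 73.0, 116, 128 and 97.7 CPM in saline mice 18, 29, 37 and 41. All kainate libraries were above all saline libraries, and Smad3 rose with a log2 fold change of 0.79 ± 0.22 (adjusted p = 0.00659). The call was lost when saline mouse 18, 29 or 41 or kainate mouse 30 or 44 was left out, with a value of 0.66 without mouse 18, whose PIZ library was low in granule cell markers. It was also lost without the filter for low counts (0.78, adjusted p = 0.0118). The difference of the kainate effect between EZ and PIZ at day 3 was -0.53 ± 0.30 for Smad3 (adjusted p = 0.354), so an effect particular to the PIZ was not shown.

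Ltbp1 measured 16.2, 12.6, 11.0 and 17.7 CPM in the PIZ of kainate mice 30, 38, 42 and 44 at day 3, above the 6.01 to 7.11 CPM of all saline mice. It rose with a log2 fold change of 1.15 ± 0.28 (adjusted p = 0.00289), a call that was lost without saline mouse 18 or 41 or kainate mouse 30 or 44. Tgfbr2, at 38.02 to 50.1 CPM against 16.3 to 22.8 CPM, was also separated but just missed the threshold (log2 fold change 1.27 ± 0.37, adjusted p = 0.0102), and 7 of 10 other settings called it. Tgfbr1 lay at 52.9 to 60.01 CPM against 34.3 to 50.9 CPM (log2 fold change 0.39 ± 0.23, adjusted p = 0.231).

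The remaining members were not called in the PIZ by edgeR over all mice, and limma-voom called Tgfb2 at day 7. Tgfb2 had log2 fold changes of -0.56 ± 0.20, -0.65 ± 0.20 and -0.26 ± 0.20 at days 3, 7 and 14 (adjusted p = 0.0391, 0.0979 and 0.966), and without kainate mouse 21, whose PIZ library had few granule cell markers, the day 7 value was -0.96 and passed (adjusted p = 0.0047). Smad7 stayed within 9.50 to 17.2 CPM in all PIZ libraries, with log2 fold changes of 0.03, 0.22 and 0.13 (adjusted p = 0.955, 0.765 and 0.999). Inhba was at 31.9, 49.3, 12.7 and 11.3 CPM in kainate mice 30, 38, 42 and 44 at day 3, at 42.5 CPM in mouse 23 and 6.20 to 13.04 CPM in the others at day 7, and at 76.3 CPM in mouse 27 and 9.20 to 11.9 CPM in the others at day 14. The saline PIZ range of Inhba was 4.06 to 21.8 CPM, so 4 of the 12 kainate mice were above it. The groups overlapped on each day (log2 fold changes 0.81, 0.53 and 1.03, adjusted p = 0.398, 0.771 and 0.931).

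The 2 regions were then compared directly. At day 7 the kainate effect was larger in the EZ for 4 of 9 members, where 9.89% of all genes differed in either direction. The difference of the log2 fold changes (EZ minus PIZ) was 2.04 ± 0.53 for Tgfb1 (adjusted p = 0.00609), 2.23 ± 0.52 for Tgfbr2 (adjusted p = 0.00336), 1.31 ± 0.33 for Tgfbr1 (adjusted p = 0.00521) and 1.97 ± 0.40 for Ltbp1 (adjusted p = 0.00202). For Smad7 it was 1.30 ± 0.38 (adjusted p = 0.0117), for Inhba 1.76 ± 0.94 (adjusted p = 0.157) and for Tgfb3 0.99 ± 0.38 (adjusted p = 0.0448). All 4 calls were lost without kainate mouse 21, kainate mouse 35 or saline mouse 20, and the differences without mouse 21 were 1.48, 1.80, 1.02 and 1.92 (adjusted p = 0.0672, 0.0384, 0.0559 and 0.0244). In a fit of the compared groups alone the calls of Tgfb1 (2.06, adjusted p = 0.0169) and Tgfbr1 (1.32, adjusted p = 0.021) were lost. Smad7 was called without kainate mouse 23 and in 7 of 11 other settings. With mouse as a fixed replicate block 6 members were called and with the mouse correlation 4, and Tgfb1 was in neither.

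At day 3 no member differed between regions by edgeR, where 0.0655% of all genes did, 3 members had an unadjusted p under 0.05, and DESeq2 called 0 and limma-voom 2. The values were 2.15 ± 0.93 for Inhba (adjusted p = 0.221), 1.14 ± 0.38 for Smad7 (adjusted p = 0.113) and 0.89 ± 0.39 for Ltbp1 (adjusted p = 0.23). At day 14 no member and 0.0% of all genes differed by edgeR, 2 members had an unadjusted p under 0.05, and DESeq2 and limma-voom called 0. Within kainate mice, the EZ library was above the PIZ library of the same mouse in 4 of 4 mice on each day for Tgfb1, Tgfbr1, Tgfbr2, Inhba, Smad7 and Ltbp1. The median ratio at day 7 was 4.88 for Tgfb1, 4.58 for Tgfbr2, 4.97 for Inhba, 3.57 for Ltbp1 and 2.80 for Smad7. The saline median ratios at day 7 were 1.37, 1.18, 1.11, 0.955 and 1.0 in the same order. In saline mice the EZ was also higher in 4 of 4 on each day for Tgfb1 and Tgfbr2. For Tgfbr1 it was higher in 4, 3 and 3 of 4, and at day 3 its median ratio was 1.23 after saline and 1.19 after kainate. For Inhba, Smad7 and Ltbp1 the saline counts were 1 to 4 of 4. For Smad3 the EZ was the lower region in 4 of 4 kainate mice at day 7, with a median ratio of 0.826. Inhba of mouse 27 was equally high in both regions (76.4 and 76.3 CPM), while its Tgfb1 was 23.02 CPM in the EZ and 3.92 CPM in the PIZ.

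**Figure D4:**
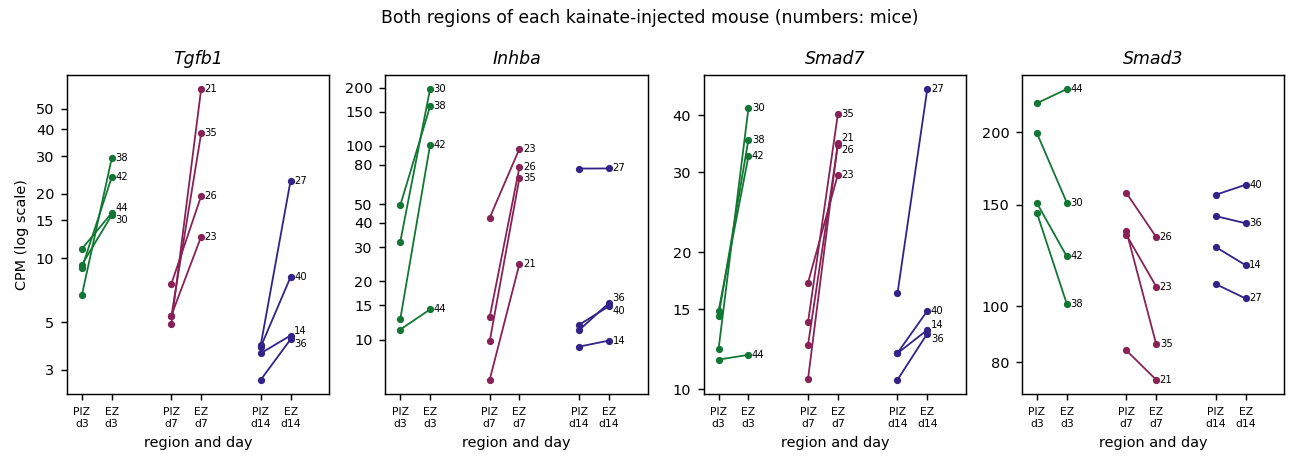
Levels of Tgfb1, Inhba, Smad7 and Smad3 in the PIZ and EZ of each of the 12 kainate mice, in CPM on a log scale, with a line joining the 2 libraries of a mouse and the mouse number beside the EZ point. Tgfb1, Inhba and Smad7 are higher in the EZ in all 12 mice, with almost flat lines for mouse 44 in Smad7 and mouse 27 in Inhba, and Smad3 is lower in the EZ in all 4 mice at day 7. Saline mice are not shown, and in them the EZ was higher in 12 of 12 for Tgfb1, 7 for Inhba and 8 for Smad7.

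The change of the kainate effect between days was not called for any member by edgeR. From day 3 to day 7 in the EZ 4 members had an unadjusted p under 0.05, DESeq2 called 0 and limma-voom 2, and 0.145% of all genes were called. From day 7 to day 14 in the EZ 5 members had an unadjusted p under 0.05, DESeq2 called 2 and limma-voom 6, and 0.271% of all genes were called. The largest of these changes were -1.83 ± 0.52 for Tgfb1 (adjusted p = 0.0223) and -1.50 ± 0.40 for Ltbp1 (adjusted p = 0.0186). Without kainate mouse 27, 6 members were called in this comparison, with -2.67 for Tgfb1 (adjusted p = 2.35e-05) and -2.28 for Ltbp1 (adjusted p = 1.9e-07). Tgfb1 was also called without kainate mouse 23 or 26, and Ltbp1 without kainate mouse 23. In the PIZ, 0.0234% of all genes changed from day 3 to day 7 and 0.0% from day 7 to day 14, no member did, 2 and 0 members had an unadjusted p under 0.05, and DESeq2 and limma-voom called 0.

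Markers of other cells moved with several members. In a bulk sample, more cells of a type and more RNA per cell cannot be told apart. Over all genes, 16.1%, 20.6% and 2.32% were called higher in the EZ at days 3, 7 and 14, and 7.12%, 0.15% and 0.00935% in the PIZ. Of 10 microglia markers, 8, 10 and 7 were called higher in the EZ at days 3, 7 and 14 and 10, 0 and 0 in the PIZ, and none was at 0 in a group. Their summed level was 1936 to 3428 CPM after kainate and 655 to 1153 CPM after saline in the EZ at day 3, 2307 to 8887 against 556 to 623 CPM at day 7, and 627 to 4299 against 499 to 533 CPM at day 14. In the PIZ it was 1331 to 1625 against 375 to 514 CPM at day 3, 532 to 1054 against 404 to 502 CPM at day 7, and 439 to 576 against 397 to 459 CPM at day 14.

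The levels of Tgfb1 and Tgfbr2 were therefore also expressed as a percent of the summed microglia markers, a ratio chosen after the data were seen. Tgfb1 was 0.605% ± 0.0638 of that sum in the EZ after kainate at day 7 and 0.61% ± 0.0678 after saline (SD, n = 4; 2-sided exact permutation p = 0.914), and 0.592% ± 0.102 against 0.586% ± 0.0789 in the PIZ at day 3 (exact permutation p = 0.943). In the EZ at day 3 it was 0.842% ± 0.0423 against 0.577% ± 0.0899, without overlap (exact permutation p = 0.0286, adjusted p = 0.171 over the 12 comparisons). Tgfbr2 was 3.26% ± 0.218 against 3.59% ± 0.407 in the EZ at day 7 (exact permutation p = 0.257), and 2.92% ± 0.118 against 4.12% ± 0.441 in the PIZ at day 3 (exact permutation p = 0.0286, adjusted p = 0.171). In the EZ at day 3 Tgfbr2 was 3.54% ± 0.366 against 3.00% ± 0.385 (exact permutation p = 0.0857), and in the PIZ at day 7 Tgfb1 was 0.722% ± 0.154 against 0.56% ± 0.0656 (exact permutation p = 0.114), higher means after kainate in groups that overlapped. At day 14 Tgfb1 was 0.658% against 0.736% in the EZ and 0.728% against 0.648% in the PIZ, and Tgfbr2 4.01% against 4.34% and 4.39% against 4.49% (exact permutation p = 0.371, 0.229, 0.371 and 0.686), and Tgfbr2 in the PIZ at day 7 was 3.73% against 3.90% (exact permutation p = 0.714). Groups of 4 allow no p below 0.0286, and with 2 of the 12 comparisons at that value none passed after adjustment. The part of microglia in the changes of the members was not tested.

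Of 10 fibroblast and meningeal markers, 8, 7 and 1 were called higher in the EZ at days 3, 7 and 14, and 1 in the PIZ at day 3. Their summed level in the EZ was 235 to 4745 CPM after kainate and 72.8 to 104 CPM after saline at day 3, 111 to 1088 against 65.8 to 76.4 CPM at day 7, and 67.7 to 285 against 71.5 to 102 CPM at day 14. At day 3 it was lowest in mouse 44 (235 CPM), the mouse that was also low in Inhba and Smad7. Pdgfra is in this list and in the oligodendrocyte list, and at 45.2 to 52.3 CPM it gave a large part of the saline sum at day 3. The list also holds Spp1, and which cells gave these sums was not tested. Of 10 astrocyte markers, 5 were called higher and 2 lower in the EZ at day 3 and 7 higher at day 7, with a summed level of 11930 to 13530 CPM against 5584 to 6224 CPM at day 7. In the PIZ at day 3, where Tgfb1, Smad3 and Ltbp1 were called, 5 astrocyte markers were called higher, with a summed level of 9322 to 10430 CPM against 5018 to 6556 CPM, and 2 granule cell markers lower, with 730.3 to 904 CPM against 652 to 1328 CPM. Of 7 tested blood leukocyte markers, 4 were called higher in the EZ at days 3 and 7, with a summed level of 48.03 to 144 CPM against 15.5 to 28.8 CPM at day 3, and 1 marker of that list was at 0 in every library of 3 saline groups. Ptprc alone measured 29.1 to 69.9 CPM after kainate and 6.58 to 16.9 CPM after saline in the EZ at day 3, a large part of that sum. Whether the sum reflects blood cells or microglia was not tested. Of 10 endothelial markers 5 and 5 were called higher in the EZ at days 3 and 7, of 10 oligodendrocyte markers 3 and 6, and of 8 mural cell markers 5 and 6. Of 8 granule cell markers 3 were called lower in the EZ at days 3 and 7, and of 8 interneuron markers 5 and 4. Of 5 choroid plexus markers 2 were called higher and 1 lower at day 3 and 0 and 1 at day 7, and of 10 markers of CA fields and thalamus 1 and 0, then 2 and 1. Over all genes 16.1% and 20.6% were called higher in the EZ at days 3 and 7, and 8.61% and 11.9% lower. In the PIZ at day 3 the shares were 7.12% and 1.57%. The counts for CA fields and thalamus, and the fibroblast count in the PIZ, are near these shares. The part of the cells of these lists in the results was not tested.

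The other genes of the pathway were described by lists. Of 17 tested genes for TGF-beta latency and activation, 13, 12 and 2 were called higher in the EZ on the 3 days in turn and 8 in the PIZ at day 3, and none was called lower. The shares of all genes called higher were 16.1%, 20.6% and 2.32% in the EZ and 7.12% in the PIZ. The list's median log2 fold change was 1.58 in the EZ at day 3 and 0.96 in the PIZ. Ltbp3, a binding protein like Ltbp1, rose from 19.1 to 23.1 CPM in saline libraries to 62.7 to 80.7 CPM in kainate libraries of the EZ at day 3 (log2 fold change 1.73 ± 0.18, adjusted p = 1.39e-08). It was the one named gene of this list called in the EZ at day 14 as well (0.81 ± 0.18, adjusted p = 0.00504). Its kainate libraries then lay at 23.8 to 49.1 CPM (mean 31.9), against 17.3 to 19.5 CPM after saline, and whether the call depends on 1 library was not tested. Ltbp3 also rose in the PIZ at day 3 (1.80 ± 0.19, adjusted p = 1.62e-08). Itgav, the integrin subunit that takes part in freeing TGF-beta, rose by a log2 fold change of 1.91 ± 0.24 in the EZ (adjusted p = 1.33e-07) and 1.01 ± 0.23 in the PIZ (adjusted p = 0.00157) at day 3. Plau, the urokinase protease, rose in the EZ at day 3 by 3.35 ± 0.45 (adjusted p = 3.85e-07).

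Of 16 genes known as targets of TGF-beta signaling, 15 were called higher in the EZ at days 3 and 7, 3 at day 14, and 4, 0 and 0 in the PIZ, and none was called lower. Of all genes, 16.1%, 20.6% and 2.32% were called higher in the EZ and 7.12%, 0.15% and 0.00935% in the PIZ. The median log2 fold changes in the EZ were 2.99, 3.15 and 1.15 and in the PIZ 1.17, 0.61 and 0.08. Tgfbi, a matrix protein named for its induction by TGF-beta, rose in both regions at day 3 (4.52 ± 0.53 in the EZ, adjusted p = 4.88e-08, and 1.79 ± 0.51 in the PIZ, adjusted p = 0.00931). Fn1, fibronectin, rose in the EZ at day 3 by 2.81 ± 0.40 (adjusted p = 1.1e-06). Col1a1 and Col1a2 are in this list and in the fibroblast list, and these genes respond to other signals too.

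Of 6 tested activin-related ligands other than Inhba, 1 was called higher and 1 lower in the EZ at day 3, where 16.1% of all genes were called higher and 8.61% lower, so the counts are near the background. Gdf10, another ligand of the family, fell from 9.41 to 12.5 CPM in saline to 1.19 to 3.16 CPM in kainate libraries (log2 fold change -2.54 ± 0.34, adjusted p = 4.21e-07). It was also called lower in the EZ at day 7 (-1.83 ± 0.33, adjusted p = 1.35e-05), where 11.9% of all genes were, and in the PIZ at day 3 (-1.25 ± 0.31, adjusted p = 0.00369), where 1.57% were. Gdf15, a stress-induced member, rose to 0.337 to 1.91 CPM, from at most 0.0461 CPM in saline libraries (adjusted p = 3.04e-05). Inhbb, the other activin beta subunit of the adult brain, lay at 3.88 to 4.38 CPM after kainate and 2.75 to 4.89 CPM after saline (log2 fold change 0.28 ± 0.23, adjusted p = 0.328).

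Of 8 other receptors and co-receptors, 4 were called higher and 2 lower in the EZ at day 3, 2 and 2 at day 7, none at day 14, and 2 and 1 in the PIZ at day 3. Of all genes, 16.1% and 20.6% were called higher in the EZ at days 3 and 7, and 8.61% and 11.9% lower. In the PIZ at day 3, 7.12% were called higher and 1.57% lower. The count called higher in the EZ at day 7 is near the background. Acvr1, a type I receptor, and Eng, the endothelial co-receptor endoglin, rose in the EZ at day 3 (log2 fold changes 1.02 ± 0.15 and 1.08 ± 0.20, adjusted p = 1.22e-06 and 3.58e-05). Acvr2a, the receptor to which activin binds, was called lower in the EZ at days 3 and 7 (-0.88 ± 0.19 and -0.99 ± 0.19, adjusted p = 0.000231 and 3.69e-05) and in the PIZ at day 3 (-1.07 ± 0.19, adjusted p = 8.49e-05). It measured 27.4 to 34.2 CPM after kainate and 51.9 to 59.9 CPM after saline in the EZ at day 3. Of the 6 other SMAD genes, 1 was called higher in the EZ at day 3 and 2 at day 7, where 16.1% and 20.6% of all genes were, so the day 3 count is near the background. Smad6, the inhibitor of the bone morphogenetic protein (BMP) branch, rose on both days (1.23 ± 0.38 and 1.63 ± 0.40, adjusted p = 0.00804 and 0.000603), and Smad5 at day 7 (0.63 ± 0.10, adjusted p = 3.58e-06). Smad1 had a log2 fold change of 0.35 ± 0.13 in the EZ at day 3 (adjusted p = 0.0241).

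Of 6 extracellular inhibitors, 3 were called higher and 2 lower in the EZ at day 3, where 16.1% and 8.61% of all genes were, and 1 each in the PIZ at day 3, where 7.12% and 1.57% were. Bgn, the proteoglycan biglycan that binds TGF-beta, was called higher in the EZ on all 3 days (log2 fold changes 3.15 ± 0.49, 3.94 ± 0.51 and 2.25 ± 0.48, adjusted p = 3.09e-06, 7.04e-08 and 0.00318) and in the PIZ at day 3 (1.98 ± 0.47, adjusted p = 0.00223). At day 14 its kainate EZ libraries spanned 14.4 to 193 CPM (mean 61.7), against 11.8 to 14.3 CPM after saline. Whether that call depends on 1 library was not tested. Fstl3, which binds activin, rose in the EZ at day 3 (1.48 ± 0.28, adjusted p = 5.71e-05), and Lefty1, an antagonist of Nodal, fell (-2.16 ± 0.52, adjusted p = 0.000764). Fst, follistatin, which also binds activin and is named here after its values were seen, was called lower in the PIZ at day 3 (-3.59 ± 0.69, adjusted p = 0.000227) and had values of -3.25 ± 0.69 in the PIZ at day 7 (adjusted p = 0.0107) and -0.88 ± 0.58 in the EZ at day 3 (adjusted p = 0.217). Of 11 intracellular inhibitors, 2 were called higher and 1 lower in the EZ at day 3 and 3 and 2 at day 7, near the shares of all genes called (16.1% and 8.61% at day 3, 20.6% and 11.9% at day 7). Pmepa1, which keeps SMAD2 and SMAD3 from the receptor, measured 55.6 to 193 CPM after kainate and 25.7 to 32.5 CPM after saline at day 3 (log2 fold change 2.41 ± 0.45, adjusted p = 4.28e-05). Tgif1, a corepressor, rose by 2.92 ± 0.51 (adjusted p = 1.98e-05), and Ppm1a, a SMAD phosphatase, was called lower (-0.62 ± 0.10, adjusted p = 3.07e-06).

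In the BMP branch, 5 of 16 genes were called higher and 2 lower in the EZ at day 3, 8 and 2 at day 7, and none in the PIZ. Over all genes 16.1% and 20.6% were called higher on these days and 8.61% and 11.9% lower, so the counts called lower are near the background. Bmp2 rose at day 3 (log2 fold change 2.59 ± 0.38, adjusted p = 1.67e-06) and had a log2 fold change of -0.05 ± 0.39 at day 7 (adjusted p = 0.926). Id2, a target of BMP signaling, was called higher on both days (1.24 ± 0.17 and 0.59 ± 0.17, adjusted p = 4.11e-07 and 0.00255), and Id4 was called lower at day 3 (-0.98 ± 0.15, adjusted p = 3.86e-06).

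**Figure D5:**
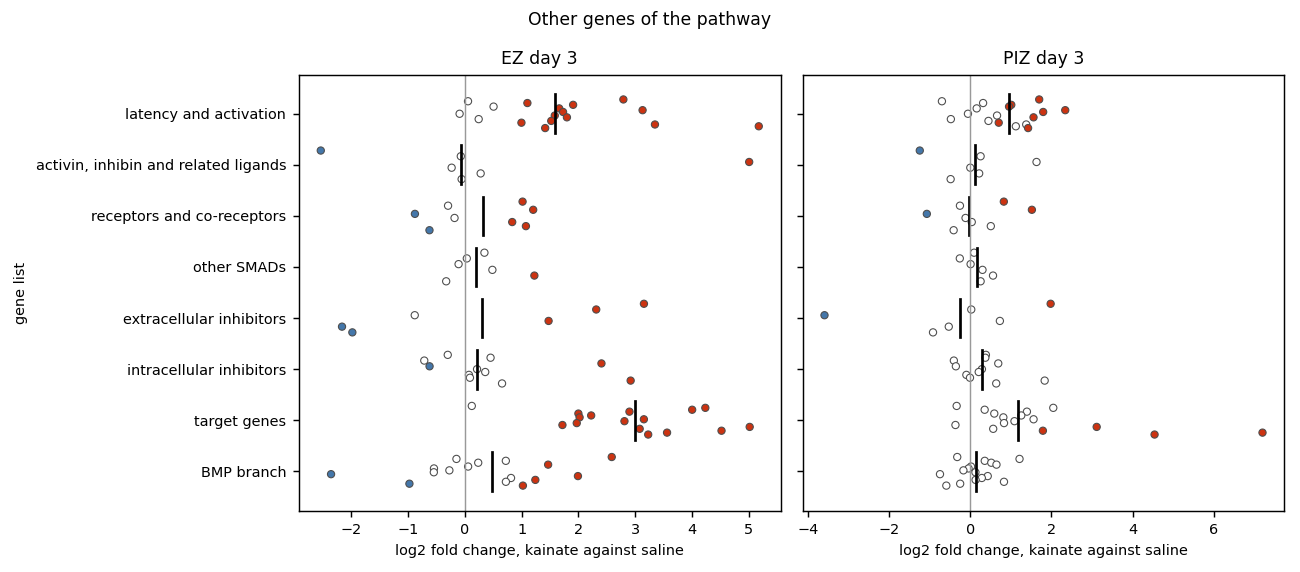
Log2 fold change between kainate and saline at day 3 for the tested genes of 8 pathway lists, in the EZ (left) and the PIZ (right). Each point is a gene (red called higher, blue called lower, white not called) and the black bar is the median of the list. The target gene list has the highest median in both regions (2.99 and 1.17), followed by latency and activation (1.58 and 0.96).

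The genes whose 6 log2 fold changes lay closest to those of each called member, by root mean square difference over the 6 comparisons among all 21390 genes, were Gbp5 (0.0905) for Tgfbr2, Tram2 (0.104) and Rhoc (0.132) for Ltbp1, and Dusp4 (0.127) and Gas6 (0.133) for Smad7. For Tgfbr1 they were Scrg1 (0.0854) and Tifa (0.0993), for Tgfb3 Prr5l (0.0915) and Sh3d21 (0.11), and for Smad3 BC037704 (0.0861) and Cdhr3 (0.0881). For Tgfb1 they were Ugt1a9 (0.106) and Ugt1a8 (0.109), which share exons, so that their counts are uncertain and not separate. For Inhba, Cd300ld2 lay at 0.324. These distances are descriptions over 6 comparisons made from the same 48 libraries.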

How the data were processed

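The authors trimmed the reads with fastp 0.20.1, aligned them to GRCm39 with HISAT2 2.2.1 and counted them per gene by strand with featureCounts of Subread 1.6.4 on Gencode annotation, taking primary alignments of multi-mapping reads, and deposited raw counts for 48 dentate gyrus libraries. From these deposited counts, gene names, lengths and positions were taken from Gencode M39, which matched 54749 of 55357 identifiers. Genes with low counts were removed by the edgeR filter over the 12 groups, counts were scaled by the trimmed mean of M values (TMM), and 1 quasi-likelihood model over all 48 libraries was fitted with edgeR 4.0.16 in R 4.3.3, with Benjamini-Hochberg adjustment over the 21390 genes tested. Standard errors are the log2 fold change divided by the square root of the F statistic. CPM were scaled by the TMM-adjusted library total, and CPM per kb divides by the exonic length. Library totals were 17762656 to 25712975 (median 22108562), and counting error is largest for Tgfb1, whose lowest count was 40.

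Shares and ratios were compared by 2-sided exact permutation tests. Both libraries of a mouse carry the same number in the labels and come from the same animal, which pairs the regions. The consensus correlation within a mouse, estimated by limma from what is left after the group means are fitted, was 0.163. Different mice were used for each treatment and day. Other fits used DESeq2 1.42.0, limma 3.58.1 (voom with sample quality weights), other scalings, filters and thresholds, a replicate block, and leaving out each mouse. The members and gene lists were chosen with earlier results of these data known. Named genes were the members, from each pathway list the 3 genes ranked first by p in the day 3 EZ comparison, and the 2 genes closest to each called member. Some genes that this rule names are not reported here. Itgb6, Inhbc, Inhbe and Mstn had too few counts to be tested.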

Additional observations from a re-analysis of the deposited data

Results flagged for a closer look

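In the EZ at day 14, kainate mouse 27 was far above the other 3 kainate mice, which lay close together, for Tgfb3 (25.1 CPM), Tgfbr1 (126 CPM), Smad7 (45.6 CPM) and Ltbp1 (25.2 CPM), with a gap to the next mouse of 0.943, 0.941, 0.908 and 0.939 of the range of the group on the log2 CPM scale. The same mouse stood apart in the PIZ for Inhba (76.3 CPM, 0.878 of the range). In its EZ library the summed microglia markers were 4299 CPM (627 to 964 CPM in the other 3 mice), the astrocyte markers 12210 CPM (6000 to 6799 CPM), the blood leukocyte markers 104 CPM (17.6 to 26.6 CPM) and the granule cell markers 609 CPM (790 to 1409 CPM), and their part in these values was not tested. Saline mouse 24 was the lowest of its group for Smad3 in the EZ at day 14 (108 CPM, 0.908 of the range). The limit was the 95% value of Dixon's test, which chance passes in about 1 in 20 groups, and 6 of 108 groups passed it on the log2 scale. On the CPM scale, added after seeing the data, 9 passed.

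The kainate effect differed between EZ and PIZ at day 7 by the interaction term of the edgeR fit for Tgfbr1 (log2 difference 1.31, adjusted p = 0.00521), Tgfb1 (2.04, adjusted p = 0.00609), Tgfbr2 (2.23, adjusted p = 0.00336) and Ltbp1 (1.97, adjusted p = 0.00202). All 4 calls were lost without kainate mouse 21, kainate mouse 35 or saline mouse 20. With a replicate block for the paired regions the value of Tgfb1 was 1.80 (mouse fixed, adjusted p = 0.0128) or 1.81 (mouse correlation, adjusted p = 0.0285) and was no longer called. The EZ library was above the PIZ library in 4 of 4 kainate mice for each of these genes, and in saline mice of day 7 in 4 of 4 for Tgfb1 and Tgfbr2, 3 of 4 for Tgfbr1 and 1 of 4 for Ltbp1. The summed microglia markers at day 7 were 2307 to 8887 CPM in the kainate EZ and 532 to 1054 CPM in the kainate PIZ, and their part in these differences was not tested.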

How the results depend on the processing

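With 4 mice a group, several counts of called members moved with 1 mouse or setting. In the EZ at day 14 the count of 1 became 2 at an adjusted p under 0.05 or with DESeq2 and 0 with only the groups compared, limma-voom or the limma replicate block. With limma-voom the count was 3 in the PIZ at day 7, 2 for the region difference at day 3, 2 for the EZ change from day 3 to 7 and 6 for that from day 7 to 14, where an adjusted p under 0.05 gave 3 and DESeq2 2. The replicate block (paired libraries of a mouse) moved no other count by over 1.5 times, apart from the 6 against 4 at day 7 for the region difference. Leaving out 1 mouse gave counts of 5 to 6, 6 to 7 and 0 to 2 in the EZ at days 3, 7 and 14, 1 to 3 and 0 to 1 in the PIZ at days 3 and 7, 0 to 5 for the region difference at day 7, 0 to 6 for the EZ change from day 7 to 14, and 0 elsewhere.

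Signs turned only for values that were not called. With limma-voom these were Smad3 (-0.027) in the EZ at day 3, Inhba (-0.10) in the EZ at day 14, Smad7 (-0.042) in the PIZ at day 3, Smad3 (0.09) in the PIZ at day 7, Inhba (-0.10), Smad7 (-0.028) and Ltbp1 (-0.13) in the PIZ at day 14, and Tgfb2 (0.067) for the region difference at day 3. Scaling by library size alone gave 0.001 for Smad3 in the EZ at day 14, 0.037 for Smad3 in the PIZ at day 7 and 0.012 for Tgfb2 in the region difference at day 3, and the replicate block -0.013 for Ltbp1 in the PIZ at day 14. The cause was not tested.

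Leaving out 1 mouse turned the sign of Inhba in the EZ at day 14 (-0.10 to 1.31) and in the PIZ at days 7 (-0.36 to 0.81) and 14 (-0.30 to 1.34), Ltbp1 in the EZ (-0.01 to 0.97) and PIZ (-0.21 to 0.16) at day 14, Smad3 in the EZ at days 3 (-0.029 to 0.42) and 14 (-0.16 to 0.058) and in the PIZ at day 7 (-0.15 to 0.12), Smad7 in the PIZ at days 3 (-0.053 to 0.087) and 14 (-0.015 to 0.21), Tgfb2 in the EZ at day 14 (-0.26 to 0.061) and Tgfbr1 in the PIZ at day 7 (-0.003 to 0.30). For the region difference at day 3 it turned Tgfb2 (-0.15 to 0.06) and Tgfbr1 (-0.079 to 0.098). The Tgfb1 share differed by 22.8 to 26.2 points in the EZ at day 3, 21.01 to 33.3 at day 7 and 4.42 to 9.29 at day 14, and by 11.3 to 16.2 in the PIZ at day 3, 6.65 to 11.3 at day 7 and 1.31 to 2.501 in the PIZ at day 14. The log2 ratio of Smad7 to Smad3 differed by 0.54 to 1.47 in the EZ at day 3, 1.76 to 2.05 at day 7 and -0.024 to 0.73 at day 14, and by -0.91 to -0.59 in the PIZ at day 3, 0.16 to 0.42 at day 7 and -0.30 to 0.038 in the PIZ at day 14. For single members, other settings gave 769 values with an unchanged call and sign, 38 newly called, 9 no longer called and 12 of the other sign. Leaving out 1 mouse gave 642 unchanged, 13 newly called, 41 no longer called and 24 of the other sign.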
